A study of Homo sapiens and Mus musculus with 12 samples.

Results

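The genes described here are 33 genes of fatty acid burning and of the receptors that control it: the enzymes and carriers of mitochondrial and peroxisomal fatty acid oxidation, a ketone body enzyme, and the peroxisome proliferator-activated receptors (PPARs) with genes known to respond to them. They were taken by name from a list that was chosen with earlier results of these data known. All 33 were found among the 17383 genes of the mouse colon table, and 25 among the 15590 genes of the table of human RKO cells under the same name in capitals. The 8 names without an RKO entry were ACADL, ACAA1A, ACAA1B, PPARG, PPARGC1A, CD36, FABP1 and FABP2, and their RKO levels were not analysed here.

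Long-chain fatty acids are bound by fatty acid-binding proteins, joined to coenzyme A, and carried into mitochondria as carnitine esters by the carnitine palmitoyltransferases and their carrier. There they are shortened by repeated rounds of dehydrogenation, hydration, a second dehydrogenation and thiolytic cleavage, while very long and branched chains begin in peroxisomes. PPARs are ligand-activated nuclear receptors that bind DNA with the retinoid X receptor and switch on many of these genes, and the lining of the colon is known for drawing much of its energy from the oxidation of short fatty acids made by gut bacteria.

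The study sequenced polyadenylated RNA in 2 systems with 3 libraries per group. RKO, a human colon cancer cell line, carried an shRNA against ZNF280C under a tetracycline-inducible promoter in all 6 libraries, and was kept for 72 h with 1 ug/ml doxycycline, which switches the shRNA on, or without it. Colon came from C57BL/6J mice at 12 weeks of age, with either a Zfp280c knock-out or the wild-type gene. No RKO library without the hairpin was analysed here, so the effects of doxycycline and of the hairpin cannot be told apart. Whether the mouse gene was deleted in all tissues, which stretch of colon was taken and whether each library is 1 animal are not given in the sources used here. The labels do not say that the RKO libraries came from separate cultures, so p-values there measure only the spread between these samples, which may be technical.

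Colon levels are given as FPKM, which scales reads to transcript length and library size. RKO levels are the authors' normalized signal, and whether it is scaled to length is uncertain. Values follow the order of replicates 1, 2 and 3. Groups were compared with limma on log2(value + 1), with p-values adjusted by the Benjamini-Hochberg method across the whole table, and a gene passed below 0.05. ZNF280C, the targeted zinc finger gene, had a signal of 123, 99.6 and 79.1 with doxycycline and 192, 172 and 227 without (log2 fold change -0.98 ± 0.15 SE, adjusted p = 0.0276, limma). Leaving out any 1 library except doxycycline replicate 1 raised the adjusted p to between 0.0621 and 0.0922 (limma), above the threshold. In colon, Zfp280c FPKM was 0.09, 0.09 and 0.22 in the knock-outs and 2.48, 2.25 and 3.17 in the wild-types (-1.67 ± 0.14, adjusted p = 0.123, limma). Neither set overlapped between groups (exact two-sided permutation p = 0.1 in each, the smallest that 3 against 3 allows). The colon libraries carried high epithelial markers throughout (summed FPKM of 7 genes 8371 to 15070), and RKO cells held 3 of these genes in the table, EPCAM, KRT8 and VIL1.

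One colon library stood apart from its group. HOX genes mark position along the gut, and the summed FPKM of Hoxb6, Hoxb7 and Hoxb8 was 38.0, 19.6 and 33.2 in knock-out colon. Among the wild-types it was 33.4 in replicate 2 but 1.05 in replicate 1 and 0.58 in replicate 3. The summed FPKM of 5 HOX genes of the far colon (Hoxa13, Hoxb13, Hoxd11, Hoxd12 and Hoxd13) ran from 8.93 to 32.9 in knock-out colon. Wild-type replicate 2 held 27.3, and replicates 1 and 3 held 359 and 601. By these markers, wild-type replicate 2 lay with the knock-outs, and genotype and colon position cannot be told apart among the other 5 libraries. The counts of these genes in colon, and the fold changes of those whose call changes, are therefore given with and without that library.

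Across the colon libraries, the genes had mostly higher group means in the knock-outs, with the receptors Ppara and Pparg, the carnitine palmitoyltransferases Cpt1a and Cpt2, the peroxisomal thiolase Acaa1b and the pyruvate dehydrogenase kinase Pdk4 among them. The log2 fold change of knock-out over wild-type was above 0 in 30 of 33, beside 44.6% of the 11366 genes tested, and its median was 0.29 beside -0.02 over all genes. None passed an adjusted p under 0.05 in limma, as was true of all genes tested (0% in each direction). At an unadjusted p under 0.05, 11 of 33 were higher, beside 6.02% of all genes, and 0 were lower, beside 6.48%. In 12 all knock-outs lay above all wild-types, beside 7.13% of all genes, and in 0 all lay below, beside 9.79%. The share higher was thus larger among these genes than over the table, which is a description and not a test, since the genes share libraries and regulators. In bulk tissue, fewer cells of a type and less RNA per cell cannot be told apart.

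**Figure D1:**
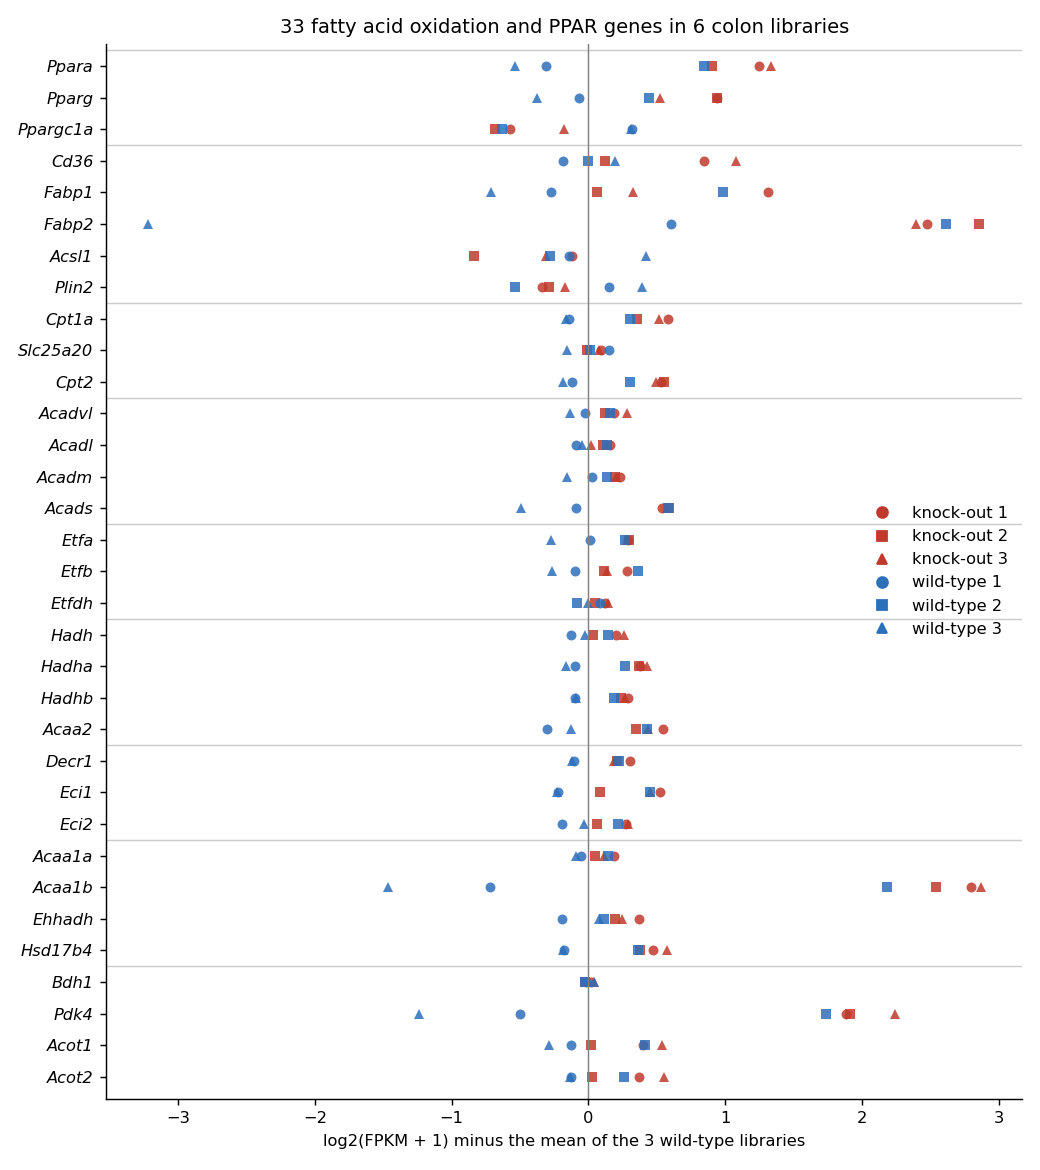
Each line is 1 gene and each point 1 colon library (knock-outs red, wild-types blue, circle, square and triangle for replicates 1, 2 and 3), as log2(FPKM + 1) minus the mean of the 3 wild-type libraries. Grey lines separate roles, from receptors at the top to Bdh1, Pdk4, Acot1 and Acot2 at the bottom. Wild-type replicate 2 (blue squares) lies among the knock-outs in most genes.

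Wild-type replicate 2 held an intermediate or knock-out-like level in most of these genes. Its value was nearer to the knock-out mean than to the mean of the other wild-types in 30 of 33, beside 70% of all genes, and lay within the knock-out range in 17, beside 50.9%. It was above both other wild-types in 26, beside 44.1%. The median of the 33 genes against the wild-type mean (log2 scale) was 0.37, 0.12 and 0.29 in knock-out replicates 1, 2 and 3. The 3 wild-types, in the same order, held -0.10, 0.26 and -0.16. Wild-type replicate 3 was the lowest library for 21 of the genes.

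Without wild-type replicate 2, 16 of the 33 passed as higher in the knock-outs (beside 9.21% of the 11344 genes then tested) and 2 as lower (beside 7.19%), in the same limma test. Then 24 were higher at an unadjusted p under 0.05, beside 16.3%, and 2 lower, beside 14.7%. All knock-outs lay above both remaining wild-types in 26, beside 23.5% of all genes, and below both in 2, beside 24.9%. The log2 fold change was above 0 in 29 of 33, beside 47.3%, with a median of 0.42 beside -0.02 over all genes. The 15 genes that did not pass had values from -0.56 to 1.06, among them Acadl (0.16), Acadvl (0.28), Hadh (0.24), Eci2 (0.32), Acot1 (0.52) and Acot2 (0.45). With the HOX position score as a covariate (mean log2 of the 3 near genes minus that of the 5 far ones), 0 passed. At an unadjusted p under 0.05, 2 were then higher, Acaa1b and Cpt2, beside 1.33% of all genes, and 0 were lower, beside 2.42%. In that fit the median was 0.05, beside -0.04 over all genes, and 24 of 33 were above 0, beside 39.2%. Knock-out colon scored between 1.28 and 2.68, and the wild-types -2.43, 1.88 and -4.42 in order of replicate. Only the second of these lies in the knock-out range, so what that fit leaves of the group difference depends on 1 library.

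**Figure D2:**
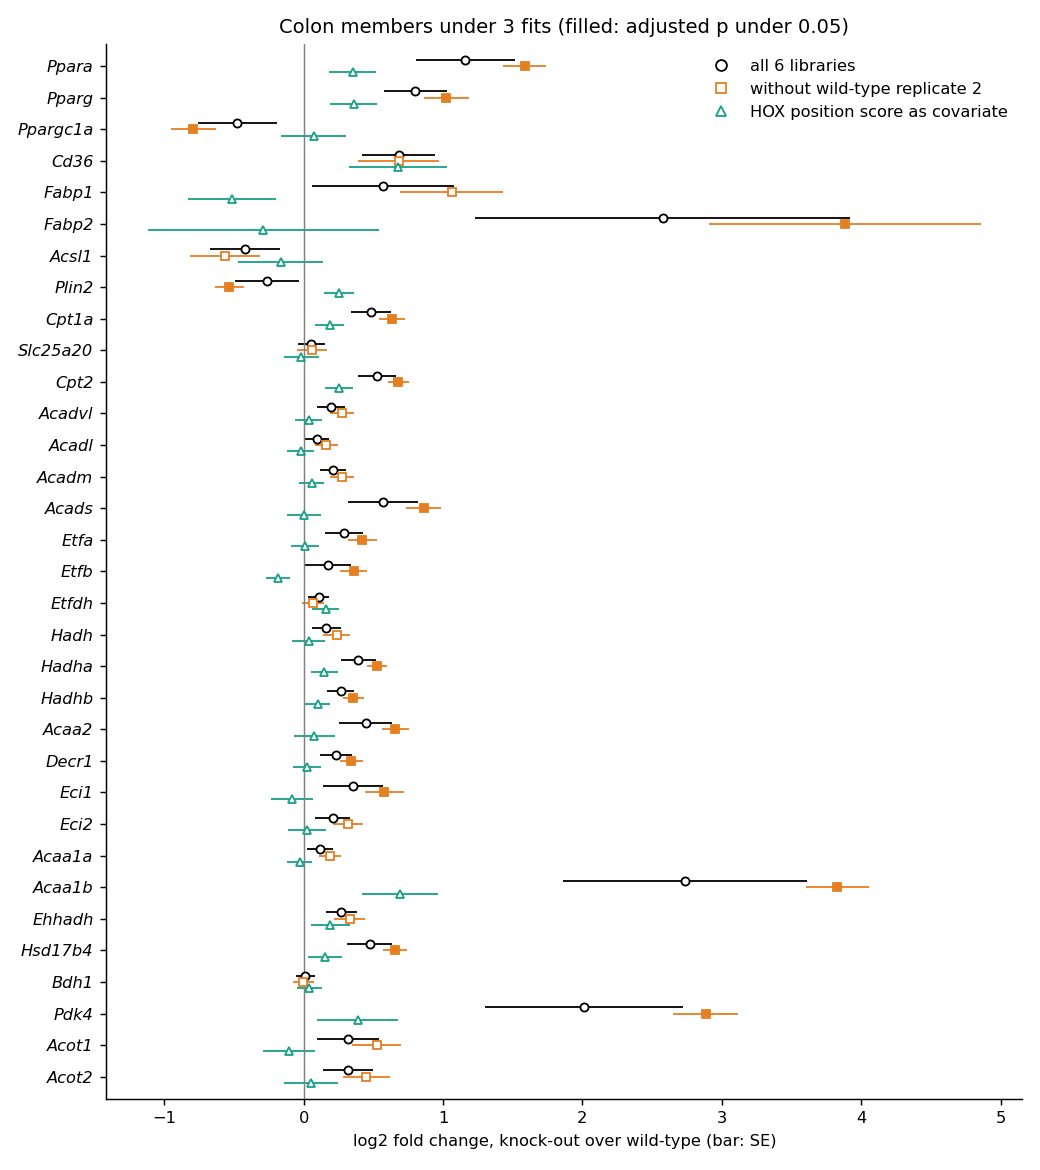
Log2 fold change of knock-out over wild-type (x axis, bars SE) for each gene in 3 limma fits: all 6 libraries (black circles), without wild-type replicate 2 (orange squares) and with the HOX position score as a covariate (green triangles). Filled symbols passed an adjusted p under 0.05, which only the fit without that library gave, for 18 genes.

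The receptors were Ppara and Pparg, and Ppargc1a encodes the coactivator PGC-1alpha, which drives mitochondrial genes. Ppara (Entrez gene 19013), the main PPAR of fatty acid oxidation, had an FPKM of 14.1, 10.9 and 15.0 in the knock-outs and 4.13, 10.5 and 3.39 in the wild-types. The groups did not overlap, but wild-type replicate 2 lay only just below the lowest knock-out. The log2 fold change was 1.16 ± 0.36 (SE, adjusted p = 0.396, limma), and 1.59 ± 0.16 without that library (adjusted p = 0.00292).

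Pparg (Entrez gene 19016), the PPAR abundant in fat and in colon epithelium, stood at 72.8, 72.9 and 54.3 FPKM in the knock-outs and 35.8, 51.2 and 28.7 in the wild-types. These groups did not overlap either (0.80 ± 0.22, adjusted p = 0.396, limma), and Pparg passed without wild-type replicate 2 (1.02 ± 0.16, adjusted p = 0.0100). Ppargc1a (Entrez gene 19017) ran the other way, at 6.01, 5.48 and 8.21 FPKM in the knock-outs against 12.0, 5.71 and 11.9 in the wild-types. Here wild-type replicate 2 fell inside the knock-out range, and the log2 fold change of -0.48 ± 0.28 became -0.79 ± 0.16 without it (adjusted p = 0.473 and 0.0219, limma). With the position covariate the 3 genes stood at 0.35, 0.36 and 0.07.

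**Figure D3:**
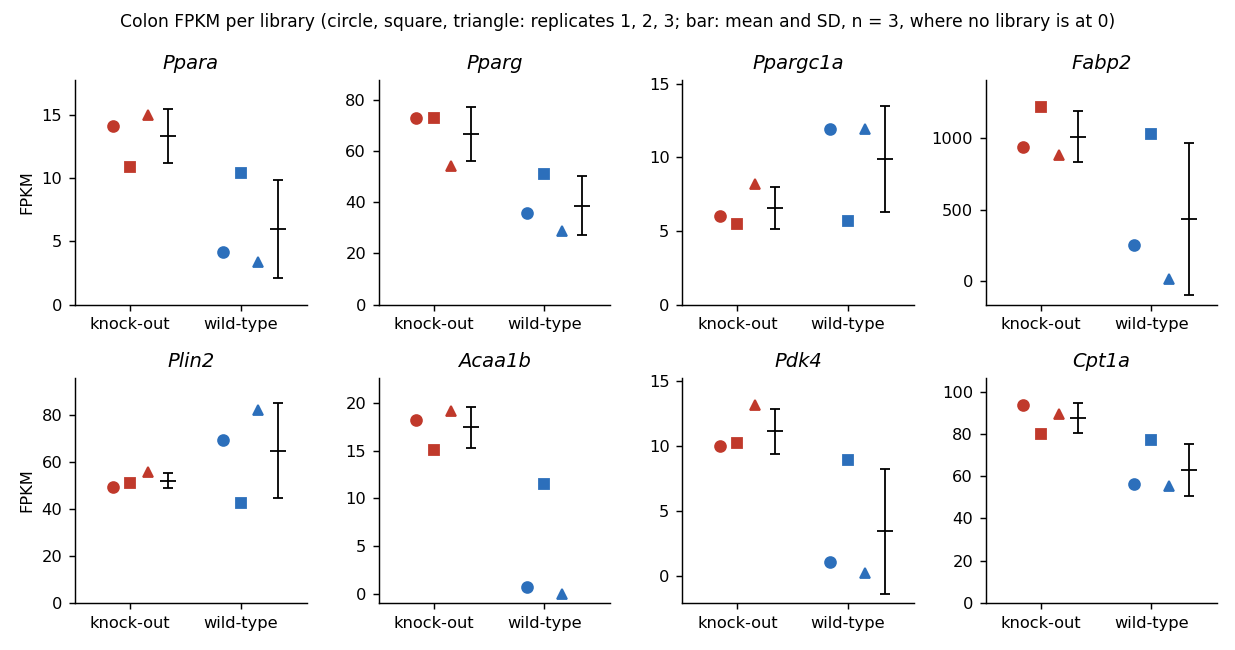
FPKM (y axis, linear) of 8 genes in each colon library, knock-outs red and wild-types blue, with the mean and SD of each group beside the points except where a library is listed at 0. In all 8 genes wild-type replicates 1 and 3 lie on one side of every knock-out, with the wild-type square near or among them.

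Genes of uptake, binding, activation and storage did not share a direction. Fabp2 (Entrez gene 14079), the intestinal fatty acid-binding protein, was the most abundant of all 33, at 932, 1210 and 881 FPKM in the knock-outs and 254, 1026 and 17.0 in the wild-types. The wild-type libraries thus differed among themselves far more than the group means did, and the log2 fold change of 2.58 ± 1.34 (adjusted p = 0.432, limma) was 3.88 ± 0.97 without wild-type replicate 2 (adjusted p = 0.0416) and turned to -0.29 ± 0.83 with the position covariate. Fabp1, the liver-type binding protein, was low everywhere, at 3.07, 0.71 and 1.05 against 0.35, 2.24 and a listed 0.

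Cd36, a fatty acid transporter of fat, muscle and blood vessels, had an FPKM of 2.13, 0.90 and 2.68 in the knock-outs and 0.53, 0.74 and 0.99 in the wild-types, so that knock-out replicate 2 overlapped the wild-types. Its log2 fold change was close in the 3 fits (0.68, 0.68 and 0.68, adjusted p = 0.396, 0.174 and 0.989, limma). Plin2 (Entrez gene 11520), which coats lipid droplets, was 49.3, 50.9 and 55.4 in the knock-outs and 69.4, 42.7 and 82.0 in the wild-types. All knock-outs were below wild-type replicates 1 and 3 and above replicate 2: the log2 fold change was -0.26 ± 0.23 with all libraries, -0.53 ± 0.10 without that library (adjusted p = 0.0184, limma) and 0.25 ± 0.11 with the covariate. Acsl1, a long-chain acyl-CoA synthetase, ranged from 4.44 to 12.0 FPKM with overlapping groups.

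PPARs bind 2 copies of the half-site AGGTCA in the same direction with 1 base between them. As the human promoters of these genes were at hand (RefSeq, GRCh38.p14, 250 bases before to 50 after each start), they were searched on both strands for that repeat, with any base in the gap and up to 2 mismatches in the copies; mouse promoters were not used here. Of 49 promoters for 27 of the genes, 0 held an exact match, beside 8 of 35116 promoters of all genes. A match with up to 2 mismatches was found in 4 promoters, or 8.16%, beside 2.97% of all. The half-site AGGTCA on either strand, counted whether or not the full repeat was there, was found in 8.16% beside 13.8%. The 4 were FABP1, ACSL1, CD36 and ACAA2. The first 3, genes of fatty acid binding, activation and uptake, are shown with 10 bases on each side, 5′ to 3′ on the strand of the gene, with the match in capitals; the motif reads on the opposite strand in each. FABP1 lies at chr2:88128108-88128140 (minus strand), ACSL1 at chr4:184805645-184805677 (minus strand) and CD36 at chr7:80638359-80638391 (plus).
FABP1: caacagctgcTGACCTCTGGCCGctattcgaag
ACSL1: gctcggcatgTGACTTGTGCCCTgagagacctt
CD36: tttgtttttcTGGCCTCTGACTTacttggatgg
A match says only that these letters stand there. No promoter was listed under the names ACAA1A, ACAA1B, EHHADH, DECR1, ETFDH and ACOT1. EHHADH, DECR1, ETFDH and ACOT1 had RKO entries under these same names, while ACAA1A and ACAA1B, mouse names in capitals, had none. Why no promoter was listed is not given in the sources used here, and human genes under other names were not looked up.

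The carnitine shuttle was split between its enzymes and its carrier. Cpt1a (Entrez gene 12894), the step that limits entry of long chains into mitochondria, was 93.5, 79.7 and 89.2 FPKM in the knock-outs and 56.3, 77.1 and 55.5 in the wild-types. Cpt2 (Entrez gene 12896), which releases the chain inside, was 64.3, 65.3 and 62.8 against 40.5, 54.8 and 38.8. Neither overlapped between groups, with wild-type replicate 2 the highest wild-type in both. The log2 fold changes were 0.48 ± 0.14 and 0.53 ± 0.14 (adjusted p = 0.396 each, limma), and 0.63 ± 0.09 and 0.68 ± 0.07 without that library (adjusted p = 0.00817 and 0.00375). Slc25a20, the carnitine-acylcarnitine carrier between them, was at 167, 156 and 166 against 174, 158 and 140 (0.05 ± 0.10) and overlapped.

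Of the 4 acyl-CoA dehydrogenases, which take the first step for chains of different length, Acadm for medium chains was the one whose groups did not overlap. It stood at 93.6, 91.0 and 91.7 FPKM in the knock-outs and 80.8, 87.3 and 71.0 in the wild-types (0.21 ± 0.09, adjusted p = 0.398, limma) and did not pass without wild-type replicate 2 (0.28 ± 0.09, adjusted p = 0.0743). With the position covariate it was 0.06 ± 0.09. Acads, for short chains, was 101, 105 and 104 against 64.9, 104 and 48.9: the knock-outs hardly differed among themselves, and wild-type replicate 2 was inside their range. Its log2 fold change of 0.57 ± 0.25 became 0.86 ± 0.12 without that library (adjusted p = 0.00798, limma) and 0.00 with the position covariate. Acadl and Acadvl, for long and very long chains, were 0.10 and 0.20 higher, with overlapping groups.

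The electrons of these dehydrogenases pass to the electron transfer flavoprotein, made by Etfa and Etfb, and on to the respiratory chain through Etfdh. Etfa FPKM was 154, 155 and 153 in the knock-outs and 127, 152 and 104 in the wild-types, without overlap (0.29 ± 0.14, adjusted p = 0.407, limma). Etfb was 197, 175 and 178 against 151, 208 and 135, with wild-type replicate 2 above every knock-out. Both passed without that library (0.42 and 0.36, adjusted p = 0.0369 and 0.0479, limma). Etfdh was 0.11 higher with overlapping groups.

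Hadha and Hadhb encode the chains of the mitochondrial trifunctional protein, which carries out the last steps for long chains. Hadha was 138, 137 and 143 FPKM in the knock-outs and 98.7, 128 and 94.2 in the wild-types (0.39 ± 0.12). Hadhb was 167, 161 and 164 against 127, 155 and 128 (0.26 ± 0.10). Neither overlapped, neither passed with all libraries (adjusted p = 0.396 each, limma), and both passed without wild-type replicate 2 (adjusted p = 0.00763 and 0.0216).

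The thiolase Acaa2 was 147, 128 and 136 FPKM against 81.3, 135 and 91.7, so that only wild-type replicate 2 lay inside the knock-out range, and it also passed without that library (0.66 ± 0.10, adjusted p = 0.00827, limma). Hadh, the dehydrogenase for shorter chains, was 0.16 higher with overlapping groups. Of the enzymes that handle double bonds, Decr1, Eci1 and Eci2 all overlapped through wild-type replicate 2 alone, with log2 fold changes of 0.23, 0.35 and 0.21. Without that library Decr1 and Eci1 passed (adjusted p = 0.0369 each, limma).

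In peroxisomes, the thiolase Acaa1b had the largest log2 fold change of the 33 with all libraries. Acaa1b (Entrez gene 235674) was 18.2, 15.1 and 19.1 FPKM in the knock-outs, against 0.67 and 11.5 in the first 2 wild-types and a listed 0 in the last. It was near absent from the same wild-types that lacked the near-colon HOX genes, and the groups did not overlap (2.74 ± 0.88, adjusted p = 0.396, limma). Without wild-type replicate 2 it was 3.83 ± 0.23 (adjusted p = 0.00123), and with the covariate 0.69 ± 0.27. Its near-identical copy Acaa1a was 69.5 to 84.6 FPKM over all libraries with overlapping groups, and how reads were split between the pair is not given in the sources used here, so both levels are uncertain.

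Hsd17b4 and Ehhadh encode the bifunctional enzymes of the peroxisome. Hsd17b4 was 45.1, 42.0 and 48.5 FPKM against 28.3, 41.6 and 28.2 (0.48 ± 0.16, adjusted p = 0.396, limma), and Ehhadh was 27.2, 24.1 and 25.0 against 18.1, 22.7 and 22.0 (0.27 ± 0.11). Neither overlapped between groups. Hsd17b4 passed without wild-type replicate 2 (0.66 ± 0.09, adjusted p = 0.00672), and Ehhadh did not (0.33 ± 0.11, adjusted p = 0.0960).

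Pdk4 (Entrez gene 27273), a kinase that turns pyruvate away from mitochondria when fat is burned, was 10.0, 10.2 and 13.1 FPKM in the knock-outs and 1.11, 8.95 and 0.26 in the wild-types. The pattern over libraries was that of Acaa1b, with wild-type replicate 2 just below the knock-outs. The log2 fold change was 2.01 ± 0.71 with all libraries (adjusted p = 0.396, limma), 2.88 ± 0.24 without that library (adjusted p = 0.00186) and 0.39 ± 0.29 with the covariate. Bdh1, which interconverts the ketone bodies, was the steadiest of all, between 48.4 and 50.8 FPKM in the 6 libraries (0.01 ± 0.07). The thioesterases Acot1 and Acot2 were 0.32 higher each, at 2.05 to 5.85 FPKM with overlapping groups, and as near-identical copies their split is uncertain.

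By level over all libraries, 17 of the 33 had a mean FPKM of at least 50, 8 lay between 10 and 50, and 8 were below 10. The highest library exceeded the lowest by less than 1.5-fold in 12 genes and by 1.5 to 3-fold in 15. The 6 with 3-fold or more, or with a 0, were Fabp2 (71.3-fold), Pdk4 (50.4-fold), Cd36 (5.06-fold), Ppara (4.44-fold), Acaa1b and Fabp1. Each mitochondrial enzyme of the oxidation cycle spanned less than 3-fold, and among genes with no 0 the widest span was that of Fabp2. No fold is given for Acaa1b and Fabp1, which are listed at 0 in 1 library.

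Markers of other cells moved with these differences. The summed FPKM of 8 adipocyte markers was 111, 62.6 and 135 in the knock-outs and 14.0, 44.4 and 10.8 in the wild-types, and all 6 tested ones were higher in every knock-out than in every wild-type. Adipoq was 2.35 to 8.90 against 0.13 to 1.21, while Plin1 was at most 1.06 and Lep at most 1.04 in any library. The part of fat cells in the higher Pparg, Cd36 and Pdk4 was not tested. Of 5 small-intestine enterocyte markers, Lct and Apoa4 were below 1 FPKM in every library, while Alpi ranged from 59.7 to 74.5 with the knock-out and was 12.5, 60.6 and 1.15 in wild-type replicates 1, 2 and 3. The sum of 7 epithelial markers ranged from 11930 to 15070 with the knock-out and was 8371, 13681 and 8591 in the wild-types, a difference that lay in Car1: the sum of the other 6 was 7364, 8286 and 7433 with the knock-out and 7426, 7824 and 7007 in the wild-types. Single genes among these 6 still differed, in both directions. Krt20 was 1477, 1720 and 1315 with the knock-out against 1001, 1424 and 604. Vil1 was 447, 473 and 432 against 369, 426 and 313, without overlap. Both passed as higher without wild-type replicate 2. Slc26a3 ran against the sum, at 213, 453 and 367 against 1189, 361 and 1351, and passed as lower without that library. The sum of 4 macrophage markers ran from 42.0 to 61.2 with the knock-out and was 126, 51.6 and 81.5 in the wild-types. Their part in the result was not tested. Smooth muscle markers summed to 461 to 739 in the knock-outs and 355 to 577 in the wild-types. Of 5 endothelial markers all but Pecam1 were below 1 FPKM everywhere, and so were Alb and Serpina1c of 4 hepatocyte markers. The other 2 were Apob, at 22.9 to 41.6 FPKM, and Ttr, at 1.30, 1.44 and 2.07 in the knock-outs and 10.1, 2.46 and 23.6 in the wild-types. Ttr did not overlap between groups and passed as lower without wild-type replicate 2.

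Other genes of the pathway came from 4 wider lists. Of 31 further oxidation enzymes tested in colon, 0 passed with all libraries, 1 was higher and 1 lower at an unadjusted p under 0.05 (beside 6.02% and 6.48% of all genes), and their median log2 fold change was 0.01. The list holds Pccb of propionate breakdown (-0.21), the peroxisomal transporter Abcd3 (0.75) and the carnitine importer Slc22a5 (0.45), with adjusted p = 0.396 each (limma). Without wild-type replicate 2, 5 passed as higher, Ech1, Scp2, Abcd3, Slc22a5 and Acox2, and 0 as lower, beside 9.21% and 7.19% of all genes. The median of this list stood beside 0.29 for the 33 genes and -0.02 over all genes.

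Of 6 ketone body genes tested, 0 passed with all libraries and 0 had an unadjusted p under 0.05 (limma), and the median was -0.08. Oxct1, which uses ketone bodies, was 55.3, 48.4 and 55.9 FPKM against 125, 51.6 and 140.3 and passed as lower without wild-type replicate 2. Acat1 and Aacs were -0.14 and -0.08 on the log2 scale.

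Of 19 other PPAR targets tested, 0 passed with all libraries. At an unadjusted p under 0.05, 8 were higher, beside 6.02% of all genes, and 1 was lower, beside 6.48%, and the median was 0.44 beside -0.02 over all genes. Angptl4, an inhibitor of lipoprotein lipase, was 2.63, 1.73 and 3.41 FPKM against 0.31, 1.86 and 0.17 (1.11 ± 0.37), and G0s2, an inhibitor of fat breakdown, was 0.88 higher. Acot4 was 0.48 higher, and the desaturase Fads2 was lower, at 16.6, 14.6 and 25.1 against 75.1, 23.9 and 125 (-1.69 ± 0.57, adjusted p = 0.396 for each of the 4, limma). Without wild-type replicate 2, 11 passed as higher, among them Lpl, Cat, Vnn1 and Ucp2, beside 9.21% of all genes, and 1, Fads2, as lower, beside 7.19%. Of 20 receptors, partners and coregulators, 0 passed and the median was 0.02. At an unadjusted p under 0.05, 2 were higher, beside 6.02% of all genes, and 1 was lower, beside 6.48%. Rxra, the partner of PPARs, was 0.37 higher, Ncor1, a corepressor, 0.30 higher and Ppard 0.13 higher, while Hnf4g stood at -0.35 on the log2 scale. Without wild-type replicate 2, 2 of the 20 passed as higher, Rxra and Ncor1, beside 9.21% of all genes, and 0 as lower, beside 7.19%. These shares are near the background.

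In RKO cells, the same genes differed little once the hairpin was induced. Among the 25 measured, 0 passed in limma, beside 0.385% of the 15590 genes tested as higher and 0.757% as lower. At an unadjusted p under 0.05, 1 was higher (ACADVL), beside 6.82% of all genes, and 2 were lower (PLIN2 and ACADM), beside 10.2%. These were also the genes whose groups did not overlap, 1 higher beside 8.65% and 2 lower beside 13.3%. These shares are near the background. The log2 fold change was above 0 in 12 of 25, beside 44.9% of all genes, with a median of -0.00 beside -0.01 and a range from -0.24 to 0.23. RKO levels are compared only within a gene.

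**Figure D4:**
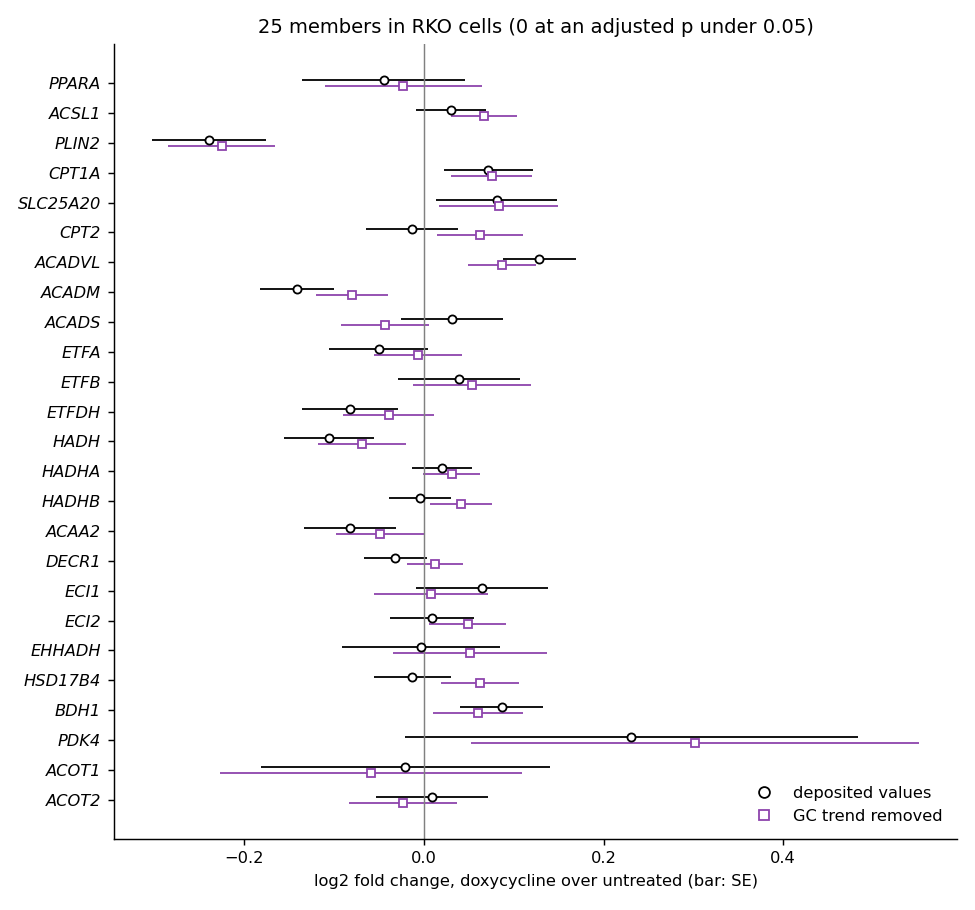
Log2 fold change of doxycycline over untreated (x axis, bars SE) for the 25 genes in RKO cells, from the deposited values (black circles) and after removal of each library's trend with GC content (purple squares). Most lie within 0.1 of 0, and PLIN2 at -0.24 lies farthest below.

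PLIN2, the lipid droplet coat, had a signal of 433, 528 and 484 with doxycycline and 570.4, 567 and 564 without. Every treated library was below every untreated one, with a wider spread among the treated (-0.24 ± 0.06, adjusted p = 0.101, limma). ACADM was 388, 373 and 383 against 426, 420.4 and 415, again without overlap (-0.14 ± 0.04, adjusted p = 0.122). ACADVL, the very-long-chain dehydrogenase, was 3062, 3325 and 3025 against 2825, 2872 and 2907 (0.13 ± 0.04, adjusted p = 0.148). The 3 differences were larger than the SD within either group, but none passed over the whole table.

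The receptor PPARA was 354, 461 and 358 with doxycycline and 413, 378 and 412 without (-0.04 ± 0.09), and CPT1A was 653, 742 and 715 against 675, 661 and 669 (0.07 ± 0.05), both overlapping. PDK4 had the highest positive value (0.23 ± 0.25), with 15.1, 25.4 and 25.4 against 14.9, 14.6 and 27.0: both groups held low and high libraries. HADH was 442, 490 and 460.1 against 502, 515 and 480.1 (-0.11 ± 0.05, adjusted p = 0.325, limma), with 1 treated library above the lowest untreated one. BDH1 was 0.09 ± 0.05 higher. The other 17, among them CPT2, SLC25A20, ACSL1, HADHA, HADHB, ACAA2 and the flavoprotein genes, lay between -0.08 and 0.08.

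Log2 fold changes in RKO cells followed GC content over the table (Spearman 0.444 over 12539 genes, which share their libraries). The 25 genes had a median GC content of 45.6%, beside 48.3% over all, with ACADVL at 58.8%, ACADM at 41.0% and PLIN2 at 48.9%. After removal of that trend from each library, ACADVL was 0.09 ± 0.04, ACADM -0.08 ± 0.04 and PLIN2 -0.23 ± 0.06 (adjusted p = 0.339, 0.413 and 0.124, limma), 15 of 25 were above 0, beside 50.2%, and the median was 0.03 beside 0.00. At an unadjusted p under 0.05, ACADVL was still higher, beside 6.71% of all genes, and PLIN2 lower, beside 7.55%. With libraries that share exactly equal values taken as a block, the same 3 genes had an unadjusted p under 0.05, beside 4.25% of all genes as higher and 6.46% as lower, and 0 genes of the table passed. PLIN2 was thus nearly as low after removal of the GC trend, while ACADM and ACADVL were closer to 0. The block left the log2 fold changes as they were. Doxycycline replicate 1 and untreated replicate 3 shared 0 exactly equal values and were blocked together as the pair left over. ACADVL overlaps DLG4 and ACADM overlaps DLSTP1 in the human annotation, and whether the counting used strand is not given in the sources used here. ACOT1 had exactly the same value, 8.61, in doxycycline replicate 3 and untreated replicate 1.

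In the wider lists, 0 also passed in RKO cells (limma) of 31 further oxidation enzymes, 7 ketone body genes, 12 other PPAR targets and 18 receptors and partners. In that order, 2, 0, 2 and 1 had an unadjusted p under 0.05 and were higher, beside 6.82% of all genes, and 0, 2, 2 and 1 lower, beside 10.2%. HILPDA, a lipid droplet protein, was 119, 127 and 131 against 167, 144 and 147 (-0.28 ± 0.07, adjusted p = 0.101). Its groups did not overlap, nor did those of OXCT1 (-0.13, adjusted p = 0.152) or SLC27A4, a fatty acid transport protein (0.12, adjusted p = 0.125). The same held for MLYCD, SLC16A1, AACS, ACAT1, ESRRA, NRIP1 and MED1. In the order of the lists, groups did not overlap in 3, 1, 1 and 1 genes as higher, beside 8.65% of all genes. As lower the counts were 0, 3, 1 and 4, beside 13.3%. FADS2 was -0.25, SLC27A1 0.18, MLYCD 0.18, ACSL5 0.19 and CRAT 0.10 on the log2 scale. SLC16A1, AACS and ACAT1 were -0.10, 0.11 and -0.04, and ESRRA, NRIP1, PPARGC1B and MED1 were 0.10, -0.17, 0.10 and -0.07.

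Set side by side, 25 genes were measured in both systems, with no library in common. PLIN2 and Plin2 had log2 fold changes of -0.24 and -0.26, ACADM and Acadm -0.14 and 0.21, ACADVL and Acadvl 0.13 and 0.20, CPT1A and Cpt1a 0.07 and 0.48, and PDK4 and Pdk4 0.23 and 2.01. Only ACADM had groups that did not overlap in both, and its directions were opposite. Over all genes tested, groups did not overlap in 13.3% as lower in RKO cells and in 7.13% as higher in colon. The RKO values ran over a far narrower range than those of colon. The median SE was 0.05 over the 25 genes in RKO cells and 0.16 over all 33 in colon. RKO signal and colon FPKM are on different scales. The effects in cells and tissue were not tested against each other.

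**Figure D5:**
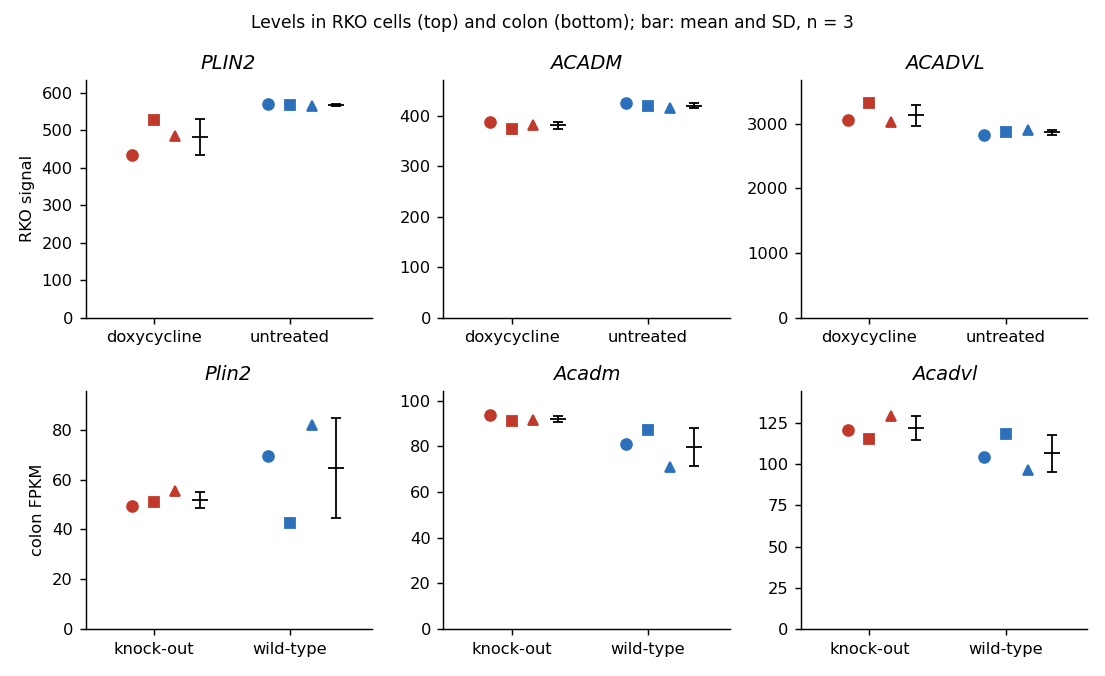
Levels of 3 genes per library, RKO signal in the top panels and colon FPKM in the bottom panels (linear axes from 0, mean and SD beside the points, n = 3 per group). ACADM is lower with doxycycline in all 3 RKO libraries, and Acadm is higher in all 3 knock-out colons.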

How the data were processed

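Polyadenylated RNA was sequenced in 12 libraries in 4 groups, taken from the labels. Per the submitters' processing notes, HISAT, Bowtie2, HTSeq, edgeR and the build hg19 were used, in an order and roles that are not given, and no mouse build is named. Colon values are FPKM (fragments scaled to transcript length and library size), per the file headers, to 2 decimals; libraries sum to 491900 to 507206. The authors deposited the RKO values as FPKM after ComBat, a batch adjustment, by the file's label, but libraries sum to 9050161 to 9195211, so the deposited values are called signal here; the batches are not given. Depth is unknown in both tables, so no counting interval is given.

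Each table was fitted alone with limma 3.58.1 in R 4.3.3 (variance trend, two-sided) on log2(value + 1), over genes with a mean of at least 1, with Benjamini-Hochberg adjustment over all genes tested; "passed" means an adjusted p under 0.05. The test had been planned for FPKM and was kept for the signal. Log2 fold changes are on the log2(value + 1) scale and understate changes of low genes. All 33 genes and, of each wider list, up to 4 with the lowest unadjusted p are named, except that some genes of the wider lists are not reported here; the lists were counted with them. Further names, chosen after their values were seen, are of genes that passed without a library. The members and lists were chosen with earlier results of these data known. Alternatives were other pseudocounts, minimum means and scalings, robust variance estimation, the replicate number or equal-valued libraries as a block, each library left out, a HOX position covariate, and a lowess (span 0.3) of GC content from the longest GENCODE transcript, known for 80.4% of RKO genes. The same genes without that correction were added after seeing the data. Replicate numbers did not pair the libraries consistently. The procedure was tested on simulated data with 200 changed genes. Noise was drawn for each gene independently, so differences that many genes share, as those of wild-type replicate 2, were not simulated. In colon the procedure recovered 0% of log2 changes of 0.3 or 0.5 and 71% of changes of 1. At 0.5, 100% of its colon calls were false. For RKO cells it recovered 31.4%, 64.9% and 89.9% of changes of 0.3, 0.5 and 1. A gene that did not pass is therefore not shown to be unchanged.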

Additional observations from a re-analysis of the deposited data

Results flagged for a closer look

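ACADM, the medium-chain dehydrogenase, differed in opposite directions in the 2 systems without overlap in either. In RKO cells all 3 doxycycline libraries lay below all 3 untreated ones (log2 fold change -0.14), and in colon all 3 knock-outs lay above all 3 wild-types (Acadm, 0.21). After removal of the GC trend ACADM stood at -0.08 ± 0.04 (adjusted p = 0.413, limma), and with the HOX position covariate Acadm stood at 0.06 ± 0.09 (adjusted p = 0.989). The difference was not tested, and neither difference passed by itself. It was the 1 gene of the 25 measured in both systems whose groups were separated in both. Over all genes tested, 13.3% were separated as lower in RKO cells and 7.13% as higher in colon.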

How the results depend on the processing

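No call among the genes changed in RKO cells under any alternative. In colon, leaving out 1 library gave 0 to 16 higher calls and 0 to 2 lower ones, and only the fit without wild-type replicate 2 gave any. With the replicate number as a block, 0 of the genes passed in either comparison, and over all genes 0 higher and 1 lower passed in RKO cells. The numbers did not pair the libraries consistently (correlations of same-numbered deviations 0.0811, -0.531 and 0.0629 in RKO cells and -0.453, -0.137 and 0.151 in colon). In RKO cells, doxycycline replicate 2 and untreated replicate 2 shared 310 exactly equal values. Doxycycline replicate 3 shared 526 with untreated replicate 1. ZNF280C no longer passed with that block (adjusted p = 0.0991, limma), with the block of libraries that share equal values (0.0769), or without doxycycline replicate 2 (0.0621) or 3 (0.0633) or untreated replicate 1 (0.0733), 2 (0.0892) or 3 (0.0922).

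Signs turned under the position covariate in colon: Acaa1a -0.0294, Acadl -0.0208, Acot1 -0.104, Eci1 -0.0856, Etfb -0.185, Fabp1 -0.513, Fabp2 -0.289, Plin2 0.252, Ppargc1a 0.0712 and Slc25a20 -0.0154; the cause was not tested. In RKO cells, equal sums turned EHHADH (0.00632) and HADHB (0.00520), quantile normalization CPT2 (0.00323), HADHB (0.00877) and HSD17B4 (0.00917), and median centring EHHADH (0.00977), HADHB (0.00854) and HSD17B4 (0.000200). Removal of the GC trend turned ACADS (-0.0436), ACOT2 (-0.0236), CPT2 (0.0623), DECR1 (0.0126), EHHADH (0.0509), HADHB (0.0412) and HSD17B4 (0.0622). With 1 library left out, the lowest and highest values were -0.0215 and 0.0698 for ACADS, -0.124 and 0.0718 for ACOT1, -0.0258 and 0.0488 for ACOT2, -0.0451 and 0.0132 for CPT2, -0.0125 and 0.0422 for ECI2, -0.0494 and 0.0673 for EHHADH, -0.0119 and 0.1002 for ETFB, -0.0206 and 0.0105 for HADHB, -0.0322 and 0.0207 for HSD17B4, -0.168 and 0.0211 for PPARA, -0.00474 and 0.0332 for Bdh1 and -0.0249 and 0.128 for Slc25a20. Scaling moved the median of all genes by at most 0.0225.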
